A study of Mus musculus with 6 samples.

Results

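This report describes 10 Polycomb genes, chosen by name, among the 54232 genes counted in bulk RNA-seq of whole mouse testes at postnatal day 12: *Ezh1*, *Ezh2*, *Eed*, *Suz12*, *Ring1*, *Rnf2*, *Bmi1*, *Cbx2*, *Scml2* and *Pcgf6*. The mice were of the B6D2F1 strain. There were 3 control libraries, with the label *Dis3l2* WT, and 3 libraries with the label *Dis3l2* KO, referred to as KO-labelled. By the study's methods the deletion was conditional. Stra8-Cre, whose promoter is active in part of the spermatogonia through preleptotene spermatocytes, acted on a floxed and a null *Dis3l2* allele, and the controls were littermates. Somatic cells of the testis, which make up much of the tissue at this age, are outside the reach of that promoter. By this genotype they carry the null allele as well.

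Library totals ran from 33325483 to 44956193 counts. The name of the target differed between sources: the labels named *Dis3l2*, an exoribonuclease of the cytoplasm, and the series' design text named *Dis3*, a ribonuclease of the RNA exosome. *Dis3l2* had 25.8, 23.5 and 23.0 CPM (counts relative to the scaled library total) in the controls against 31.6, 25.4 and 27.5 CPM. *Dis3* had 133, 148 and 137 CPM against 59.1, 64.3 and 68.1 CPM. *Dis3l2* did not pass edgeR's quasi-likelihood test (log2 fold change 0.22, standard error 0.11, adjusted p = 0.136), and *Dis3* was lower (log2 fold change -1.13, standard error 0.08, adjusted p = 2.7e-07). The call of *Dis3* was lost with the libraries scaled by germ cell markers (-0.29, adjusted p = 0.053). Measures of *Dis3l2* other than these counts were not analysed here. Counts cover all exons and all cells of the testis, and the directions below are those of the libraries as labelled.

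Polycomb proteins keep genes silent through chromatin in 2 kinds of complex. In Polycomb repressive complex 2 (PRC2), EZH1 or EZH2 methylates histone H3 on lysine 27, with EED and SUZ12 as core partners. In PRC1, RING1 or RNF2 ubiquitinates histone H2A, paired with 1 of the PCGF proteins, among them BMI1 and PCGF6. Canonical PRC1 holds a CBX protein such as CBX2, which binds the methyl mark laid by PRC2, and variant PRC1 holds other subunits instead. SCML2 is a PRC1-associated protein found mainly in the male germline, where it is known to act on somatic genes and on the sex chromosomes.

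Promoter sequences place the genes in the genome and show how unlike their start regions are. RefSeq promoters on GRCm38.p6, here the 250 bases before the start, were found for 9 of the 10 genes, all but *Cbx2*. Motifs were searched on both strands: the GC box (GGGCGG), the CCAAT box (CCAAT), E2F (GCGGGAA), the E-box (CACGTG), NRF1 (GCGC, any 2 bases and GCGC) and the TATA box (TATAAA); the letters of different motifs can overlap. The sequences of *Ezh1* and *Ezh2*, the paralogs of which 1 passed the test below, and of *Scml2* and its PRC1 partner *Rnf2*, which differed in the same way, are shown 5′ to 3′ along each gene, with every motif match in capitals.
Ezh1 (chr11:101226464-101226713, minus strand): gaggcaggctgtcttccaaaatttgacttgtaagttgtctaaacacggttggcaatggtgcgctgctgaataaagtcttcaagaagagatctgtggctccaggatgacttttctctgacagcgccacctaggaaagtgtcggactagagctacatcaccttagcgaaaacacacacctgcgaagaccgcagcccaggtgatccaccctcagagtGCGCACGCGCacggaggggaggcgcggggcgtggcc
Ezh2 (chr6:47595031-47595280, minus strand): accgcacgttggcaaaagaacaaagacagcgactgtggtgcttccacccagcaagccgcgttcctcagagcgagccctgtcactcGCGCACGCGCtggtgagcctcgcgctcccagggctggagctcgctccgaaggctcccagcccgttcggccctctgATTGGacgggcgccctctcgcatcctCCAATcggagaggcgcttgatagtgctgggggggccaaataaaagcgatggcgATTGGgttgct
Scml2 (chrX:161162500-161162749, plus strand): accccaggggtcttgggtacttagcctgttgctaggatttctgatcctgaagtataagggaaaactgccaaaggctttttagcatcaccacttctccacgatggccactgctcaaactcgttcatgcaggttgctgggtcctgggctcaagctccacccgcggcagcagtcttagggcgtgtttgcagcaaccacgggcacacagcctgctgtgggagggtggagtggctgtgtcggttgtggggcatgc
Rnf2 (chr1:151500992-151501241, minus strand): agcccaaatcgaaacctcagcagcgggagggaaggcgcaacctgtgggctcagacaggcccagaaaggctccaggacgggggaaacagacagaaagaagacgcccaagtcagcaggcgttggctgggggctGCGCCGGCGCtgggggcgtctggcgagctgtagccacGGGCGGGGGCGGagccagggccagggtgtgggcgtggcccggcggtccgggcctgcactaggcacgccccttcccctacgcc
*Ezh1* and *Ezh2* both held the NRF1 letters, in *Ezh2* with 3 CCAAT boxes and in *Ezh1* with none. *Rnf2* and *Pcgf6* held the NRF1 letters too, which makes 4 of the 9 genes against 4.98% of all 32851 promoters in the table. The GC box was in 5 of 9 (32.7% of all), the CCAAT box in 2 (33.8%), E2F in *Suz12* (3.82%), the E-box in *Bmi1* (6.02%) and the TATA box in 0 (12.4%). *Scml2* held 0 of these motifs and 7 CpG dinucleotides, the fewest of the 9. *Suz12* held the most, 37, and the median of all promoters was 6. The NRF1 letters hold CpG themselves, and the shares over all promoters were not matched for CpG. Among the sequences shown, the RefSeq starts of *Scml2* and *Ezh2* lie inside the genes as the counting annotation draws them, by 45557 and 311 bases. Each of these windows is thus that of 1 of several possible starts.

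Of the 10 genes, 3 were lower in the KO-labelled libraries, 0 were higher and 7 did not pass edgeR's quasi-likelihood test at a Benjamini-Hochberg adjusted p under 0.05. Over all 20327 genes tested, 32.7% were called, 16.5% lower and 16.2% higher, and among genes with a mean of at least 10 CPM 47.1% were called and 20.2% were lower. The median log2 fold change was -0.19 for the 10 genes and -0.02 for all genes tested, and all 10 genes passed the filter on low counts. Those called were *Scml2*, *Cbx2* and *Ezh2*. The KO-labelled libraries all lay below the controls for these genes and for *Ezh1* and *Suz12*, that is for 5 of 10 (23.8% of all genes), and all above them for 0 of 10 (21.7%). At an unadjusted p under 0.05 the number was 6, with *Ezh1*, *Eed* and *Suz12* besides those called. At 3 of 10 the share called was close to that of all genes. It was below that of genes with a mean of at least 10 CPM. All 3 calls were lower, and the direction of the calls among the 10 genes changed with the scaling, as given below.

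**Figure D1:**
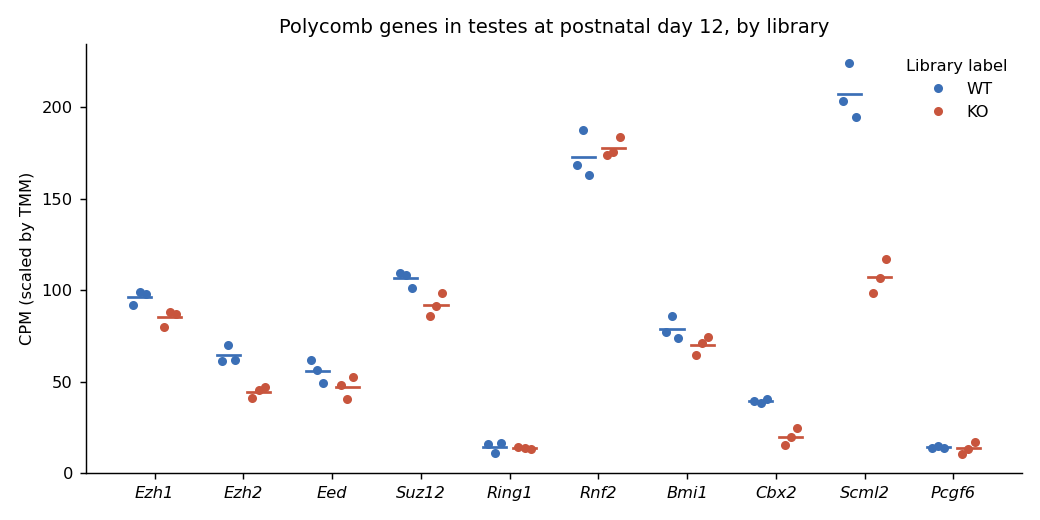
CPM of the 10 Polycomb genes (vertical axis, scaled by TMM) in each library; points are libraries, 3 a group, and lines are group means. *Scml2* shows the widest gap, those of *Ezh2* and *Cbx2* are narrower, and the points of *Rnf2*, *Ring1*, *Pcgf6*, *Bmi1* and *Eed* overlap between groups.

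In PRC2 the catalytic subunits differed in their change. *Ezh2* (ENSMUSG00000029687.16, chromosome 6, 47530139 to 47595341 on GRCm38), the methyltransferase of dividing cells, had 61.1, 70.1 and 61.7 CPM in the controls and, in the KO-labelled libraries, 40.8, 45.5 and 47.1 CPM. It fell by 0.53 on the log2 scale (standard error 0.09, 95% interval -0.73 to -0.33, adjusted p = 0.000498), and the groups did not overlap. *Ezh1* (ENSMUSG00000006920.14, chromosome 11, 101191115 to 101226463), its paralog of lower activity that is known from resting cells, had 91.9, 99.2 and 97.7 CPM against 79.9, 88.3 and 87.2 CPM. These groups did not overlap either, but the difference was smaller and missed the threshold (log2 fold change -0.18, 95% interval -0.35 to -0.01, adjusted p = 0.102).

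The core partners gave values on the same side of 0. *Suz12* (ENSMUSG00000017548.15, chromosome 11, 79993106 to 80034123), the scaffold of the complex, had 109, 108 and 101 CPM in the controls and, in the KO-labelled libraries, 86.0, 91.2 and 98.6 CPM, with no overlap. Its log2 fold change was -0.21 (95% interval -0.38 to -0.04, adjusted p = 0.0593). *Eed* (ENSMUSG00000030619.9, chromosome 7, 89954654 to 89980983), which binds the methyl mark, had 61.5, 56.4 and 49.0 CPM against 48.2, 40.2 and 52.5 CPM. Here the groups overlapped: KO-labelled library 3 lay above control library 3 (log2 fold change -0.24, 95% interval -0.48 to -0.004, adjusted p = 0.111). Without KO-labelled library 3 both genes passed the test, with adjusted p = 0.0431 for *Suz12* and 0.0467 for *Eed*, and the number of genes called rose from 3 to 5.

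In PRC1 the ubiquitin ligases and their PCGF partners did not pass the test. *Rnf2* (ENSMUSG00000026484.13, chromosome 1, 151458004 to 151500955), the main ligase, had 169, 187 and 163 CPM in the controls and, in the KO-labelled libraries, 174, 176 and 184 CPM, which lie within the control range. Its log2 fold change was 0.04 with a 95% interval of -0.13 to 0.21. *Ring1* (ENSMUSG00000024325.8, chromosome 17, 34020792 to 34024680), the paralog ligase, had 15.6, 10.8 and 16.4 CPM against 14.2, 13.7 and 13.1 CPM. Its 95% interval was -0.40 to 0.26, and control library 2 lay below all other libraries. *Bmi1* (ENSMUSG00000026739.13, chromosome 2, 18677018 to 18686629), the PCGF subunit that is known for stem cell maintenance, had 77.3, 85.8 and 73.7 CPM against 64.7, 70.9 and 74.3 CPM. The groups overlapped by 1 library, and the log2 fold change was -0.17 (95% interval -0.36 to 0.02, adjusted p = 0.151). *Pcgf6* (ENSMUSG00000025050.7, chromosome 19, 47033619 to 47050845), the PCGF subunit of the variant complex PRC1.6, had 13.8, 14.6 and 13.7 CPM against 10.6, 12.9 and 16.8 CPM. Its KO-labelled libraries lay on both sides of the controls, and the log2 fold change was -0.07 (95% interval -0.40 to 0.27).

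The largest falls among the 10 were in subunits that join the ligase core. *Scml2* (ENSMUSG00000000037.16, chromosome X, 161117193 to 161258213) had 203, 224 and 195 CPM in the controls and, in the KO-labelled libraries, 98.3, 107 and 117 CPM. The lowest control thus stood well above the highest KO-labelled library, and the mean was 48.2% lower (log2 fold change -0.95, standard error 0.09, 95% interval -1.14 to -0.76, adjusted p = 2.44e-06). *Cbx2* (ENSMUSG00000025577.7, chromosome 11, 119022962 to 119031270), the reader whose loss is known to turn genetic male mice into females, had 39.1, 38.4 and 40.3 CPM against 15.1, 19.5 and 24.4 CPM. Its mean was 49.9% lower (log2 fold change -0.995, standard error 0.14, 95% interval -1.29 to -0.70, adjusted p = 8.34e-05). The controls of *Cbx2* lay close together (39.3 ± 0.966 CPM, SD, n = 3), and the KO-labelled libraries were more spread (19.7 ± 4.66 CPM, SD, n = 3).

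Divided by exon length, the levels of the genes can be set side by side. In the controls *Rnf2* was highest, with 39.5 to 45.4 CPM per kilobase, followed by *Scml2* with 32.0 to 36.9. Then came *Suz12* (20.5 to 22.1) and *Bmi1* (18.5 to 21.6), which overlapped, and *Eed* (12.8 to 16.1) and *Ezh1* (12.4 to 13.3), which overlapped too. *Ezh2* (9.15 to 10.5) and *Cbx2* (9.01 to 9.46) formed the next overlapping pair, and *Pcgf6* (6.53 to 6.98) and *Ring1* (3.33 to 5.06) were lowest. Other neighbours in this order did not overlap. In the KO-labelled libraries *Scml2* was at 16.2 to 19.3 CPM per kilobase, overlapping *Suz12* (17.4 to 19.9) and *Bmi1* (16.3 to 18.7), and *Cbx2* at 3.55 to 5.73 overlapped *Ring1* (4.03 to 4.37).

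A ratio of 2 genes within a library does not depend on how libraries are scaled. With 3 libraries against 3 the exact two-sided permutation test over 20 arrangements cannot give less than p = 0.1, and after adjustment over 7 ratios the smallest value was 0.233. *Scml2* to *Rnf2* gave log2 ratios of counts of 0.27, 0.26 and 0.25 in the controls and -0.82, -0.72 and -0.65 in the KO-labelled libraries, a difference of -0.99 (exact p = 0.1, adjusted 0.233). The control libraries were nearly alike in this ratio, and the groups lay far apart. *Cbx2* to *Rnf2* gave -2.11, -2.29 and -2.02 against -3.52, -3.17 and -2.91, a difference of -1.06 with the same p. *Ezh1* to *Ezh2* gave 0.59, 0.50 and 0.66 against 0.97, 0.96 and 0.89, a difference of 0.35, again with no overlap and the same p. The balance of these 2 transcripts in whole tissue thus lay further to *Ezh1* in every KO-labelled library. The other ratios, *Eed* to *Suz12* (-0.03), *Ring1* to *Rnf2* (-0.08), *Bmi1* to *Pcgf6* (-0.08) and *Bmi1* to *Pcgf2* (-0.13), overlapped between groups, with exact p from 0.5 to 0.9.

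The same shift can be read as the share of a paralog in the CPM per kilobase of its family. *Ezh2* made up 42.6% ± 1.37 (SD, n = 3) of the *Ezh1* and *Ezh2* total in the controls and 36.8% ± 0.70 (SD, n = 3) in the KO-labelled libraries. Of the sum of *Cbx2*, *Cbx6*, *Cbx7* and *Cbx8*, *Cbx2* made up 51.0% ± 3.63 (SD, n = 3) in the controls and 29.9% ± 4.38 (SD, n = 3) in the KO-labelled libraries. That sum was 18.6, 16.3 and 19.5 CPM per kilobase against 14.0, 15.2 and 16.8, which overlap, and *Cbx6* took 39.0% of it in the KO-labelled libraries and 23.7% in the controls. In the PCGF family *Bmi1* (22.7% and 21.7%) and *Pcgf6* (7.65% and 7.87%) kept overlapping shares, while *Pcgf5* had 9.60% in the controls and 4.09% in the KO-labelled libraries. *Ring1* stayed the minor ligase with 9.58% and 8.90% of the pair. Of the sum of the MBT genes *Scml2*, *Scmh1*, *Sfmbt1* and *Sfmbt2*, the share of *Scml2* was 43.9% and 37.6%, in a total of 77.7 ± 4.38 and 47.1 ± 4.19 CPM per kilobase (SD, n = 3).

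**Figure D2:**
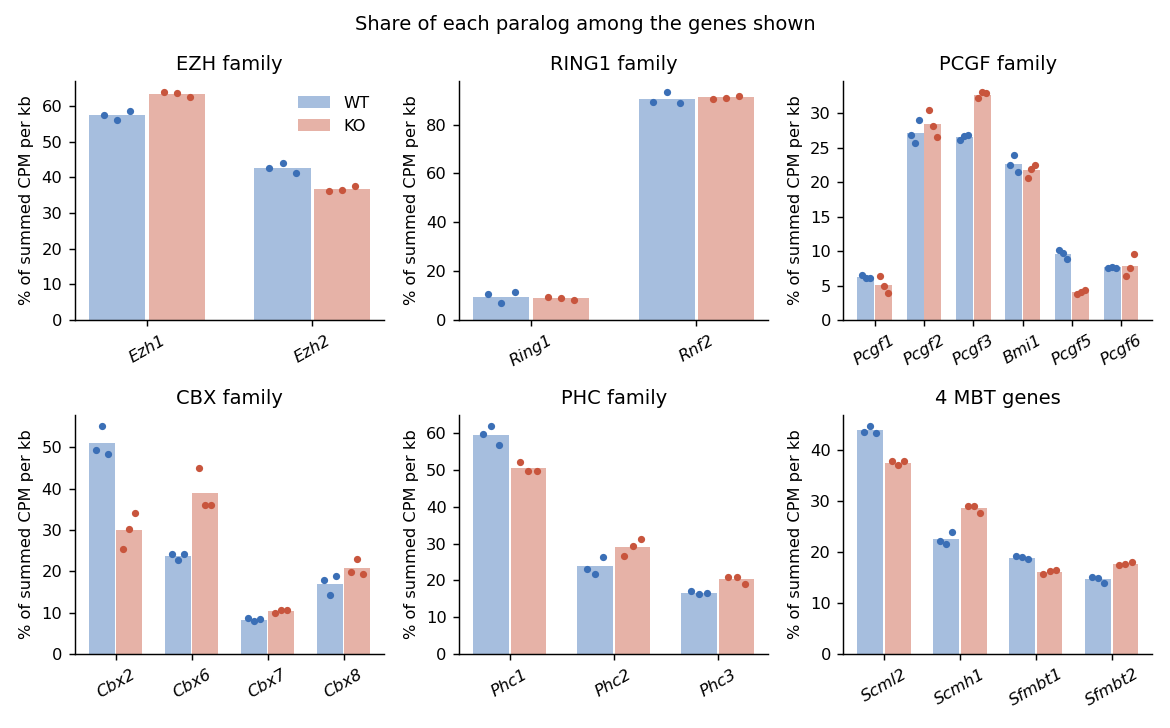
Share of each paralog in the summed CPM per kilobase of the genes shown with it (vertical axis, percent) for 5 Polycomb families and 4 MBT genes; bars are means of 3 libraries and points are libraries. *Cbx2* and *Pcgf5* show the largest relative losses, *Ezh1* and *Ezh2* part in opposite directions as shares of a pair must, and *Ring1* and *Rnf2* overlap.

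The libraries also differed in markers of cell types, and in whole tissue fewer cells of a type and less RNA per cell cannot be told apart. Markers of early spermatocytes were lower for 10 of 10 genes, with summed levels of 1053 to 1271 CPM in the controls and 265 to 351 CPM in the KO-labelled libraries. Markers shared by germ cell stages were lower for 6 of 8 (1548 to 1773 against 608 to 814 CPM), among them *Ddx4* (log2 fold change -1.30, adjusted p = 2.54e-07). Markers of differentiating spermatogonia were lower for 3 of 5 (424 to 456 against 179 to 220 CPM), and those of undifferentiated spermatogonia were higher for 4 of 8 and lower for 0 (210 to 216 against 251 to 302 CPM). Sertoli cell markers were higher for 10 of 10 (5657 to 5969 against 8977 to 9730 CPM), among them *Amh* (log2 fold change 1.56, adjusted p = 1.29e-06). Of 6 markers each, those of Leydig cells were higher for 4, of stromal cells for 3, of endothelial cells for 2 and of macrophages for 5, and those of peritubular myoid cells were lower for 3. Over all genes tested 16.5% were lower and 16.2% higher. The marker lists were chosen with earlier results of these data known, so their counts are a description and no test. None of these markers was at 0 in all libraries. Their part in the changes of the Polycomb genes was not tested beyond the scalings that follow.

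Values so far were scaled by TMM, which sets libraries level over most genes. Scaling the libraries by cell markers instead moved every value, since it moved the median of all genes from -0.02 to -0.39 (somatic cell markers) or to 0.82 (germ cell markers). With somatic markers *Scml2* had a log2 fold change of -1.32, *Cbx2* of -1.35 and *Ezh2* of -0.90. Of the 10 genes 9 were lower and 0 higher by edgeR's test, all but *Pcgf6* (adjusted p = 0.0523). Among all 20327 genes tested 7842 were lower and 555 higher with this scaling (41.3% called). With germ cell markers 7 of the 10 were higher and 0 lower: *Scml2* at -0.11 (adjusted p = 0.456), *Cbx2* at -0.18 (adjusted p = 0.323) and *Ezh2* at 0.31 (adjusted p = 0.0503) did not pass edgeR's test. Among all 20327 genes tested 13208 were higher and 519 lower with germ cell markers (67.5% called). Relative to germ cell markers the 95% intervals were -0.37 to 0.15 for *Scml2*, -0.49 to 0.14 for *Cbx2* and 0.02 to 0.59 for *Ezh2*.

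**Figure D3:**
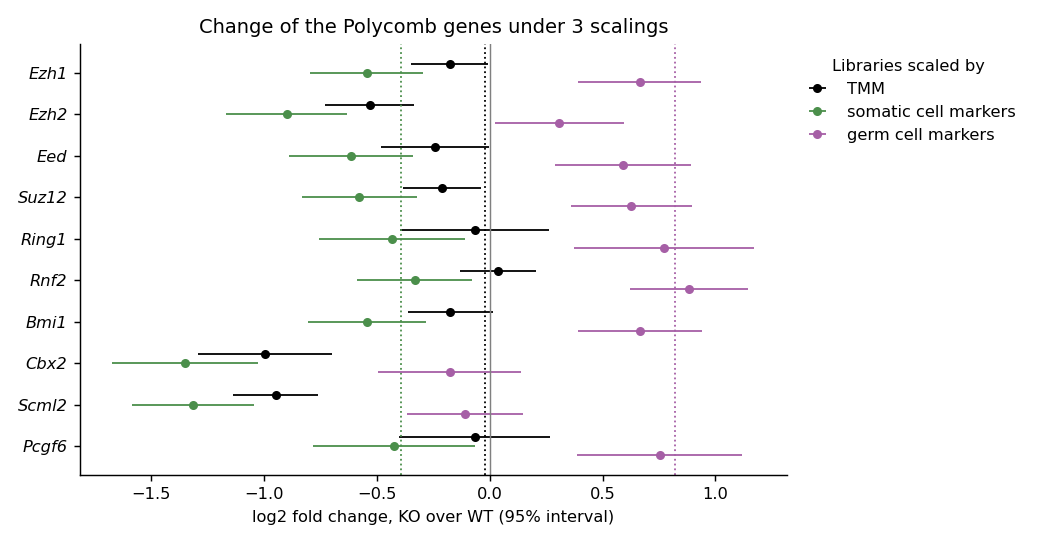
Log2 fold change (horizontal axis, KO-labelled over control) with its 95% interval for the 10 Polycomb genes, with libraries scaled by TMM, by somatic cell markers or by germ cell markers; dotted lines are the medians of all genes tested. *Scml2* and *Cbx2* lie furthest left under each scaling, and with germ cell markers their intervals take in 0.

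The wider Polycomb machinery was read from 5 lists of 47 other genes, all of them tested. With TMM scaling 13 were higher, 11 lower and 23 did not pass, with a median of -0.03. That is 51.1% called, against 32.7% of all genes tested (16.2% higher, 16.5% lower) and 47.1% of those with a mean of at least 10 CPM. With somatic markers 1 was higher and 24 lower (53.2% called, 41.3% of all genes). With germ cell markers 40 were higher and 2 lower (89.4% called, 67.5% of all genes). The directions that follow are thus those with TMM scaling, and the counts of each list stand beside these shares. Among 10 accessory and core genes of PRC2, 4 were lower and 2 higher. *AU022751*, the mouse gene of the PRC2 inhibitor EZHIP, had 9.07, 9.08 and 11.1 CPM in the controls and, in the KO-labelled libraries, 3.03, 4.06 and 3.90 CPM (log2 fold change -1.41, standard error 0.18, adjusted p = 3.58e-05). The KO-labelled libraries held less than every control, in the same direction as *Ezh2*. *Lcor* (-0.49), *Mtf2* (-0.39) and *Jarid2* (-0.25), which code for accessory subunits, were lower as well, but higher with germ cell markers (0.34 to 0.59). *Phf19* (0.68), of the same Polycomb-like family as *Mtf2*, and the histone chaperone gene *Rbbp4* (0.24, but -0.13 with somatic markers) were higher. With somatic markers *Phf19* missed the threshold (0.31, adjusted p = 0.274). *Jarid2* missed it without KO-labelled library 1 or 2 or control library 2 or 3 (adjusted p = 0.0566 to 0.156), *Rbbp4* without KO-labelled library 1 or 2 or control library 1 or 3 (0.0618 to 0.143) and *Phf19* without KO-labelled library 2 (0.0754).

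Of 10 genes of canonical PRC1 and MBT genes listed with it, 4 were lower and 3 higher. The list includes *Sfmbt1* and *Sfmbt2*, whose proteins belong to the Polycomb complex PhoRC. *Sfmbt1*, which like *Scml2* codes for MBT domains, had 127, 135 and 119 CPM in the controls and, in the KO-labelled libraries, 57.5, 67.0 and 72.8 CPM. Its log2 fold change was -0.95, with a standard error of 0.09 and adjusted p = 4.92e-06. *Sfmbt2* (-0.45) and *Scmh1* (-0.38), which also code for MBT domains, were lower with TMM scaling. With germ cell markers *Sfmbt1* was at -0.11 (adjusted p = 0.459), *Sfmbt2* at 0.39 and *Scmh1* at 0.46. Of the polyhomeotic genes, which code for subunits that link PRC1 complexes, *Phc1* was lower (-0.27, but 0.57 with germ cell markers) and *Phc2* and *Phc3* were higher (0.26 each, but -0.10 and -0.12 with somatic markers). These calls were lost without KO-labelled library 2 or control library 1 (adjusted p = 0.0515 to 0.136), that of *Phc1* also without control library 2 (0.0778), and that of *Phc2* also without control library 2 (0.0852) or KO-labelled library 3 (0.136). *Cbx6* was higher (0.47, adjusted p = 0.00286, but 0.10 and 0.554 with somatic markers), and *Cbx7* and *Cbx8* did not pass.

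Variant PRC1 genes were lower for 2 of 15 and higher for 4. *Pcgf5*, the PCGF subunit of PRC1.5, had 111, 111 and 96.2 CPM in the controls and, in the KO-labelled libraries, 37.2, 42.3 and 46.1 CPM (log2 fold change -1.34, standard error 0.10, adjusted p = 2.3e-07). No Polycomb gene other than *AU022751* lay lower. *L3mbtl2*, a subunit of PRC1.6 together with *Pcgf6*, was lower at -0.70 (adjusted p = 7.73e-05, but 0.15 with germ cell markers), whereas *Pcgf6* itself, *Mga* and *E2f6* did not pass. *Bcor* (0.69) and *Bcorl1* (0.54), which code for subunits of PRC1.1, *Auts2* (0.39), a partner in PRC1.5 and PRC1.3, and *Max* (0.29, but -0.09 with somatic markers) were higher. With somatic markers *Bcorl1* (0.17, adjusted p = 0.28) and *Auts2* (0.02, adjusted p = 0.926) missed the threshold. Among 9 genes of the deubiquitinase PR-DUB, which removes the PRC1 mark, of its partners and of the separate H2A deubiquitinase USP16, *Asxl3* was lower (-0.71, but 0.11 with germ cell markers), and *Foxk1* (0.37, but 0.01 and adjusted p = 0.976 with somatic markers), *Foxk2* (0.26, but -0.10 with somatic markers) and *Asxl2* (0.22, but -0.14 with somatic markers) were higher. *Max* missed the threshold without KO-labelled library 1 or control library 1 or 3 (adjusted p = 0.0891 to 0.103), *Foxk2* without KO-labelled library 2 or control library 1 (0.0943 and 0.101) and *Asxl2* without KO-labelled library 2 or 3 or control library 1 (0.0619 to 0.119). *Kdm6b*, a demethylase of the PRC2 mark, was the 1 of 3 such genes that passed, at 541, 517 and 573 CPM against 638, 770 and 812 CPM (log2 fold change 0.44, adjusted p = 0.00208, but 0.08 and 0.654 with somatic markers).

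**Figure D4:**
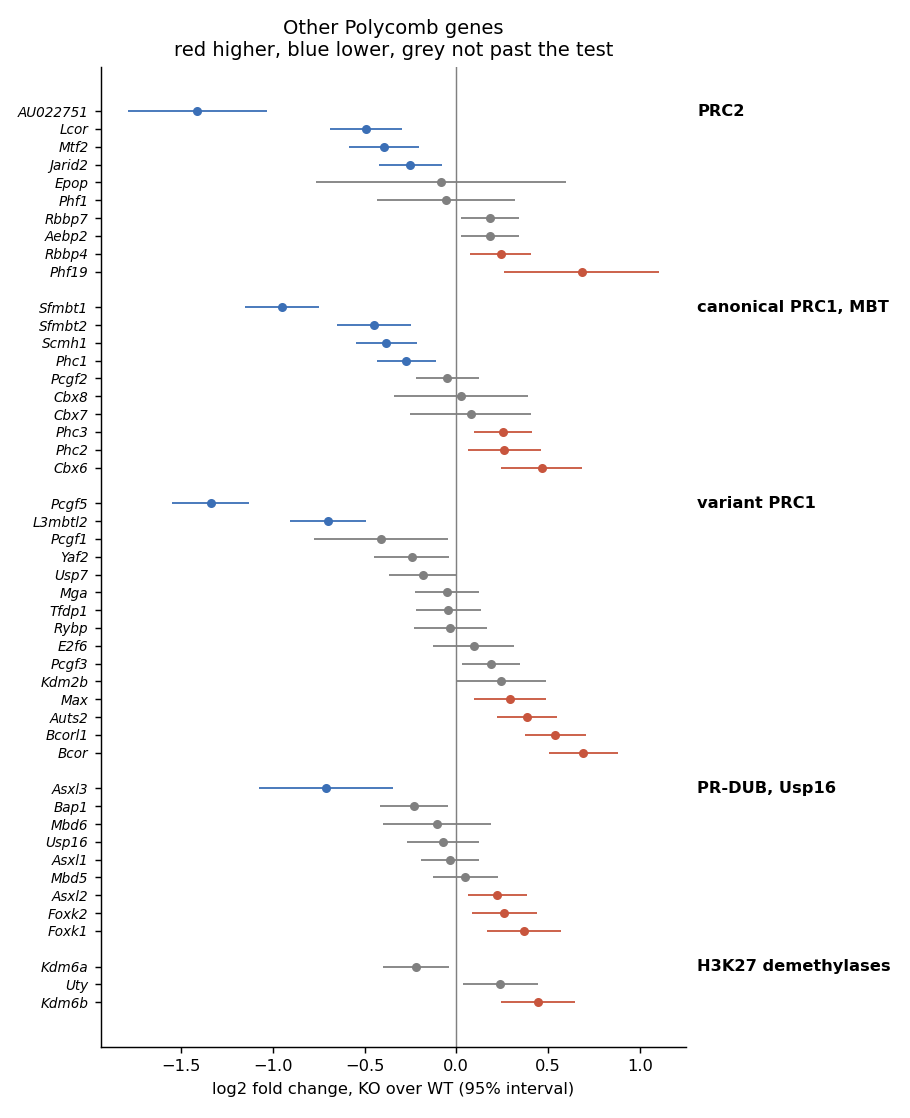
Log2 fold change (horizontal axis, KO-labelled over control, TMM scaling) with its 95% interval for 47 other Polycomb genes in 5 lists; red genes were higher, blue genes lower and grey genes did not pass the test. *AU022751*, *Pcgf5* and *Sfmbt1* lie furthest to the left, and *Bcor* and *Phf19* furthest to the right.

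Genes that Polycomb complexes are known to silence in other cells were read from 2 lists. All 12 germ cell genes known as targets of PRC1.6 and E2F6 outside the germline were lower with TMM scaling (16.5% of all genes), with a median of -1.23. Of these *Ddx4*, *Mael*, *Dazl* and *Sycp3* are also on the germ cell marker lists, and the others are germ cell genes too. *Ddx4*, *Mael* and *Dazl* are among the markers that set the germ cell scaling, and the list was not counted under that scaling. *Stag3*, a cohesin subunit of meiosis, had 191, 197 and 189 CPM in the controls and, in the KO-labelled libraries, 45.3, 57.5 and 56.0 CPM (log2 fold change -1.86, adjusted p = 8.09e-09). *Sycp3*, a component of the synaptonemal complex, had 77.2, 101 and 68.9 CPM against 17.5, 18.6 and 20.2 CPM. Of 28 developmental regulators known as targets in embryonic stem cells, 19 were tested with TMM scaling. Of these, 7 were higher (16.2% of all genes), 0 lower and 12 did not pass, with a median of 0.34. Somatic marker scaling moved the median of all genes by -0.37, and the median of this list was not taken under it. *Zic1*, a zinc finger factor of neural development, had 3.54, 4.0 and 2.34 CPM in the controls and, in the KO-labelled libraries, 20.7, 20.4 and 28.4 CPM (log2 fold change 2.82, adjusted p = 1.87e-07). *Gata6*, a factor that somatic cells of the testis also use, had 59.6, 59.9 and 64.6 CPM against 86.1, 94.2 and 89.9 CPM (log2 fold change 0.55, adjusted p = 0.000116). With somatic markers *Zic1* remained higher and *Gata6* had 0.19 (adjusted p = 0.222). Markers of early spermatocytes were lower, as were the called germ cell targets, and Sertoli cell markers were higher, as were the called developmental targets. Of the markers of undifferentiated spermatogonia 4 of 8 were higher and 0 lower, and of those of peritubular myoid cells 3 of 6 were lower and 0 higher. The part of cell types in these calls was not tested beyond these scalings.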

How the data were processed

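The authors isolated RNA with RNeasy Micro columns, made libraries with the TECAN Universal RNA-Seq kit, which selects strand and depletes rRNA, and sequenced single ends on an Illumina HiSeq. Per the labels and the file header they trimmed reads with cutadapt, aligned them with HISAT2 (versions not given in the sources used here) to GRCm38.p5 and counted them with featureCounts 1.6.4 on 1 strand over GENCODE M18. The deposited table holds raw counts of 54232 genes in 6 libraries and exon lengths; 0 of its library columns were left unused. Multi-mapping and ambiguous reads were not counted under these settings, and no member shares exons with another gene on its strand. Names came from GENCODE M21 (54165 identifiers matched, 67 not).

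Counts were tested with edgeR 4.0.16 under R 4.3.3 (filterByExpr, TMM, glmQLFit, glmQLFTest) over all genes; a Benjamini-Hochberg adjusted p under 0.05 is a call. CPM are scaled by TMM, the standard error is the log2 fold change over the square root of F, and 95% intervals use the t distribution with 14.49 degrees of freedom. Totals of 33325483 to 44956193 counts set the counting precision, which covers counting error only. The study calls the samples of each group biological replicates and the controls littermates, but the labels name no litters. The main fit thus held no litter pairing, and p-values measure the spread between these samples. No library was a copy of another: replicate counts differed with a chi-square of 10 or more per degree of freedom. Scalings by markers used the geometric mean, with 1 added, of the counts of the 8 markers shared by germ cell stages or of those of the 6 somatic cell types.

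Alternatives were DESeq2 1.42.0, limma-voom (limma 3.58.1), other factors and filters, a replicate block and each library left out. Tables were handled with pandas 2.3.3, exact tests with scipy 1.17.1 and plots with matplotlib 3.10.9 in Python 3.11.15. The 10 members and all lists were chosen with earlier results of these data known. Named genes are the members, *Dis3l2*, *Dis3*, *Pcgf2*, *Ddx4*, *Amh*, up to 4 per direction of each Polycomb list and up to 2 of each target list with the smallest adjusted p. Genes named as not past the test, and those shared with marker lists, were chosen after their values were seen. Not every member of the lists is reported here.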

Additional observations from a re-analysis of the deposited data

How the results depend on the processing

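Under the main settings 6641 genes were called, 3294 higher and 3347 lower. With germ cell marker scaling 13727 were called (13208 higher, 519 lower), as were 7 of the 10 members and 42 of the 47 other Polycomb genes; with somatic marker scaling 8397 were called (555 higher, 7842 lower), as were 9 members. Leaving out 1 library gave 4948 to 6669 genes, 3 to 5 members and 16 to 24 other Polycomb genes. With at least 10 counts in every library *Suz12* was called too (adjusted p = 0.0316), while *Phc2* was lost (0.0544), and without a filter *Jarid2* was lost (0.0744). *Scml2*, *Cbx2* and *Ezh2* stayed called under DESeq2, limma-voom, RLE and upper-quartile factors, both filters and each left-out library.

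Signs turned with germ cell markers for *Ezh1* (0.67), *Ezh2* (0.31), *Eed* (0.59), *Suz12* (0.63), *Ring1* (0.77), *Bmi1* (0.67), *Pcgf6* (0.75), *Pcgf2* (0.80), *Lcor* (0.34), *Mtf2* (0.45), *Jarid2* (0.59), *Scmh1* (0.46), *Sfmbt2* (0.39), *Phc1* (0.57), *L3mbtl2* (0.15) and *Asxl3* (0.11). With somatic markers they turned for *Rnf2* (-0.33), *Dis3l2* (-0.15), *Rbbp4* (-0.13), *Phc3* (-0.12), *Phc2* (-0.10), *Max* (-0.086), *Foxk2* (-0.10) and *Asxl2* (-0.14). Both follow from the scaling itself, which moved the median of all genes. Values near 0 turned without 1 library for *Ring1* (0.052 without control 3 and 0.0035 without control 1), *Rnf2* (-0.0016 without control 3) and *Pcgf6* (0.087 without KO-labelled library 1 and 0.0017 without control 2). Without 1 library *Ring1* ranged from -0.19 to 0.052, *Rnf2* from -0.0016 to 0.14 and *Pcgf6* from -0.25 to 0.087.

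The labels give both groups the replicate numbers 1 to 3. Deviations from the group means of libraries with the same number had correlations across genes of -0.0014, -0.0126 and 0.0139. Those of libraries with different numbers ran from -0.0373 to 0.0349. No label says that a number marks a litter, and correlations over all genes cannot exclude it. With the number as a replicate block 6561 genes, 3 members and 24 other Polycomb genes were called, and exact paired sign-flip tests of the ratios cannot go below p = 0.25. Ratios of *Scml2* and *Cbx2* to *Rnf2* ranged from -1.03 to -0.94 and from -1.21 to -0.90 without 1 library. The lowest group mean of a member was 13.4 CPM (*Pcgf6*).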
